A study of Mus musculus with 12 samples.

Results

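An alternative exon end is an exon that was assembled with 1 boundary fixed and the other at 2 or more positions, so that the messages of the gene differ by a stretch at the start or the end of that exon. The transcript catalogues of 12 RNA-seq libraries were searched for all lines with an alternative end in its exact or its approximate form, taken as distinct by form, gene, chromosome, start and end. This gave 24787 alternative end lines, 20141 exact and 4646 approximate, which is 17.5% of the 141591 distinct transcript events of all classes. They lay in 5837 of the 14275 genes listed (40.9%). The cells were BV-2, an immortalised line of mouse microglia. The study had 4 groups of 3 libraries: LPS+NMN, LPS, NMN and Control. LPS is lipopolysaccharide, which activates microglia through TLR4, and NMN is nicotinamide mononucleotide, a precursor of NAD. The study's stated aim was to learn how NMN protects BV-2 cells against LPS-induced ferroptosis, an iron-dependent form of cell death. All groups are the same cell line, Control is labelled by that word alone, and neither dose nor time is given in the sources used here. Separate cultures are not stated for the libraries of a group, and the p-values therefore reflect a spread that may be technical.

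An intron is removed between a donor site at the end of the upstream exon, which begins with GT in nearly all introns, and an acceptor site at the start of the downstream exon, preceded by AG. U1 snRNP recognises the donor, and SF1 with the U2AF heterodimer recognises the branch point, pyrimidine tract and acceptor. SR proteins and hnRNPs bound nearby shift the choice between competing sites. A shift by a multiple of 3 nt in coding sequence keeps the reading frame, and other shifts change it downstream.

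The sequences below show what these segments look like in genes on which the results turn. Capitals mark the bases that only the longer form of the exon holds, and the lower-case flanks are the 12 bases on either side in the spliced message. All are coding, read from GENCODE M21 transcripts on GRCm38 and written along the transcribed strand; Stat3, Parp3, Hnrnpc, Ddx17, Chuk, Glo1 and Tln2 lie on the minus strand and the others on the plus strand. The first 8 have a variable acceptor and both ends in all 12 libraries. They come from Stat3, a transcription factor of cytokine signalling (exon 23 of 24, chr11:100889541-100889590), Trem2, a microglial lipid receptor (exon 4 of 5, chr17:48351691-48351745), Spi1, the myeloid transcription factor PU.1 (exon 2 of 3, chr2:91099400-91099429), Grn, which encodes progranulin (exon 11 of 13, chr11:102435709-102435768), Parp3, an ADP-ribosyltransferase that consumes NAD (exon 5 of 11, chr9:106474521-106474535), Prpf40b, a factor associated with U1 snRNP (exon 21 of 25, chr15:99315480-99315482), and Hnrnpc, a nuclear protein that binds uridine tracts, whose exon 8 of 9 has 3 acceptors (chr14:52075413-52075415 and chr14:52075413-52075436).
Stat3, 50 nt: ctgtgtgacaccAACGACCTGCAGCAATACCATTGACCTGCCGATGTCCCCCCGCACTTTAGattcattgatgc
Trem2, 55 nt: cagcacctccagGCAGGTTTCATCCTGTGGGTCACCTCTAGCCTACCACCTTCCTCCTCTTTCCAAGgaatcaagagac
Spi1, 30 nt: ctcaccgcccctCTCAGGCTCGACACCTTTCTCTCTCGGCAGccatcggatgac
Grn, 60 nt: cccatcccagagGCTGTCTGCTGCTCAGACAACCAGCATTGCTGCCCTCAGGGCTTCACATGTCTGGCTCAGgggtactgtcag
Parp3, 15 nt: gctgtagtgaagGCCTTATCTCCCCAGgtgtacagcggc
Prpf40b, 3 nt: caggtgttggagCAGactgaatgccag
Hnrnpc, 3 nt: gcaagcaagcagTAGagatgaagaatg
Hnrnpc, 24 nt: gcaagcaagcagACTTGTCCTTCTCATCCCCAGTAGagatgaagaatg
Each of these capital runs ends in AG, the acceptor of the shorter form. The next 4 have a variable donor and both ends in all 12 libraries: Ddx17, an RNA helicase (exon 12 of 13, chr15:79531672-79531677), U2af2, the U2AF subunit that binds the pyrimidine tract (exon 10 of 12, chr7:5075228-5075239), Ifngr1, the ligand-binding chain of the interferon-gamma receptor (exon 2 of 7, chr10:19597517-19597530), and Chuk, the kinase IKK-alpha of NF-kB signalling (exon 19 of 21, chr19:44077246-44077262).
Ddx17, 6 nt: gcggaggaggggGTAAGGgaggccgctcac
U2af2, 12 nt: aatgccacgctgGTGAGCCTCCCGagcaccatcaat
Ifngr1, 14 nt: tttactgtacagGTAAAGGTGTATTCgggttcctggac
Chuk, 17 nt: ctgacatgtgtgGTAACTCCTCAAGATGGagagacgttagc
Each of these begins with GT, the donor of the shorter form. The last 4 are segments of genes whose listing differed between groups: Carf, a calcium-responsive transcription factor (acceptor, exon 2 of 14, chr1:60109222-60109326), Glo1, the enzyme glyoxalase 1 that detoxifies methylglyoxal (acceptor, exon 4 of 6, chr17:30597873-30597892), Tln2, a talin that links integrins to actin (donor, exon 18 of 20, chr9:67227063-67227107), and Uba7, the activating enzyme for the interferon-induced modifier ISG15 (acceptor, exon 21 of 24, chr9:107981390-107981517).
Carf, 105 nt: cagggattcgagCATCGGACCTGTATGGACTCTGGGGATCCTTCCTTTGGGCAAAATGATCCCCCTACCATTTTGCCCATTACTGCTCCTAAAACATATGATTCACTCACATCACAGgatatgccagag
Glo1, 20 nt: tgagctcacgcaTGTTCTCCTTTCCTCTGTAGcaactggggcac
Tln2, 45 nt: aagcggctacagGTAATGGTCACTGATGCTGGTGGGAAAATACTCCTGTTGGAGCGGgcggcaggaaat
Uba7, 128 nt: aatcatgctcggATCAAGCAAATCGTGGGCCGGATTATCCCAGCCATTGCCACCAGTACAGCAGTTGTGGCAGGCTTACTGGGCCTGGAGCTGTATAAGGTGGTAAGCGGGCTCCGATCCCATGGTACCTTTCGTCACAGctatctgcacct

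A library held between 7315 and 8498 alternative end lines in 2604 to 2935 genes, or 43.1% to 45.7% of its splicing events. The files list events and hold no read counts, so the sequencing depth is unknown and no counting error can be given. The labels call the cells macroglia. Of 12 microglial markers, 10 were listed in all 12 libraries, Cx3cr1 in 4 and P2ry12 in 2. The astrocyte genes Aldh1l1, Aqp4 and Slc1a3, the oligodendrocyte gene Mog, and the neuronal genes Rbfox3, Syt1, Snap25 and Stmn2 were in none. The lists of other cell types were not wholly absent, with Slc1a2, Mbp, Cnp and Tubb3 among those in all 12. Control replicate 1 had the most alternative end lines and NMN replicate 1 the fewest.

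Alternative ends sharing a boundary were grouped, with both forms of a position merged to 22693 positions, of which 2094 were listed in both forms. This gave 10825 exons in 5832 genes. Most exons (9158, or 84.6%) had 2 ends, 1267 had 3, and 400 had 4 or more. The acceptor varied in 6186 exons (57.1%) and the donor in 4639. Another 39 positions shared a boundary with no other position in their gene, and 1394 belonged to 2 exons because each of their boundaries was shared. Most genes had few such exons: 3185 had 1 and 291 had 5 or more. The highest number was 13 in Cacna1a, a calcium channel subunit.

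Exons with many ends were mostly made of ends seen once or a few times. Slc15a3, a lysosomal peptide and histidine transporter, had 17 acceptors spread over 455 nt, none in more than 3 libraries. Ptp4a2, a tyrosine phosphatase, had 13 acceptors within 36 nt, of which 3 were in 7 libraries each. Lrrc47 had 12 donors over 455 nt, Mllt3 had an exon with 12 donors over 84 nt and another with 11 acceptors over 87 nt, and Arid1a, a subunit of the SWI/SNF chromatin remodeller, had 11 acceptors over 1055 nt. Sp100, a nuclear body protein induced by interferon, had 11 donors within 38 nt. Taf15, an RNA-binding protein, had 11 acceptors over 234 nt. In Lpl, which encodes lipoprotein lipase, 10 donors lay within 42 nt.

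Recurrence was low. Of the 24787 lines, 11748 (47.4%) were in a single library and 2594 (10.5%) in all 12. Skipped exons had 42.1% in a single library and 10.8% in all 12, and retained introns 55.9% and 7.05%. The approximate form recurred less, with 68.1% of lines in a single library and 2.28% in all 12, against 42.6% and 12.4% of the exact form. By group, 12403 lines (50%) were in libraries of 1 group only and 6236 (25.2%) had a library in each of the 4 groups. Within a group, the lines found in all 3 libraries were 30.7% of those listed in LPS+NMN, 30.6% in LPS, 31.6% in NMN and 31.4% in Control.

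The distance between the ends of a 2-end exon had a median of 73 nt, and it was shorter the more libraries held the less listed end. The median was 98 nt where that end was in 1 library (4497 exons), 77 nt in 2 to 5 libraries (2356 exons), 55 nt in 6 to 11 (1324 exons) and 47 nt in all 12 (981 exons). Distances above 1000 nt made up 14.1% of exons whose less listed end was in 1 library and 2.14% of those in all 12. The quartiles in all 12 libraries were 22 and 94 nt. Acceptor and donor shifts had the same order of size there, with medians of 47 and 46.5 nt. The acceptor share was 55%, 55.3%, 62.3% and 58.8% over the same 4 classes.

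Frame-keeping shifts were more frequent among recurrent ends. Of all 13223 shifts 37.2% were a multiple of 3, and of the 2-end exons 37.5%. The share was 34.8% where the less listed end was in 1 library, 36.1% in 2 to 5, 39.4% in 6 to 11 and 50.7% in all 12. In all 12 libraries the remainders 1 and 2 had 24.8% and 24.6%. The share in all 12 was 50.1% for acceptors and 51.5% for donors, and it was 56.9% for shifts up to 60 nt and 41.5% for longer ones. Per library, the share ran from 40.9% to 42.9% with all 4 groups in that range, and the median shift from 54 to 59 nt.

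**Figure D1:**
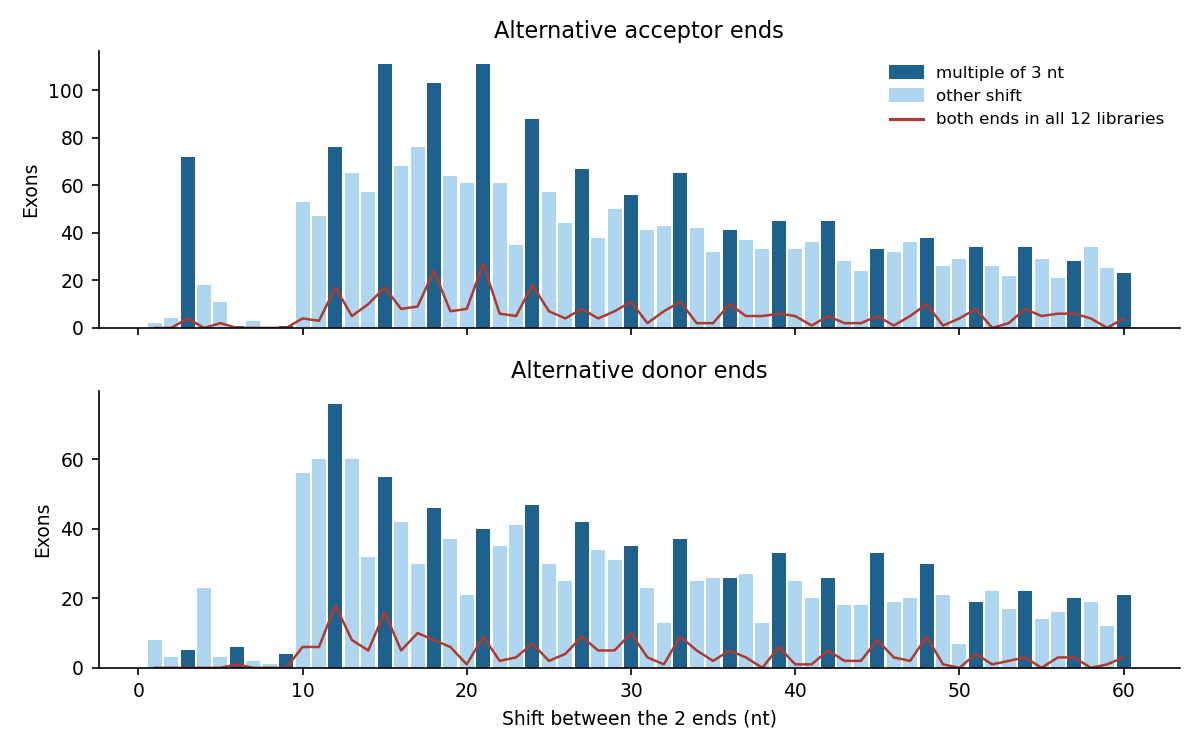
Number of 2-end exons (vertical axes) by shift between the ends in nt (horizontal axis, 1 to 60 nt), for acceptors above and donors below. Dark bars are multiples of 3, light bars other shifts, and the line gives exons with both ends in all 12 libraries; few exons lie between 6 and 9 nt, and acceptors peak at 3 nt and again at 15 to 21 nt.

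Very short shifts were rare, and acceptors 3 nt apart were the most frequent of them. Only 167 of the 2-end exons had ends less than 10 nt apart, against 1113 with 10 to 18 nt. Of the 167, 112 were acceptors, and 72 of those were 3 nt apart, the spacing of tandem NAG acceptors such as that of Prpf40b. A shift of 4 nt was seen in 18 acceptors and in 23 of the 55 donors. Of the exons under 10 nt, 7 had both ends in all 12 libraries. Besides Prpf40b, the 3 nt acceptors in all 12 were those of Cnot1, the scaffold of the CCR4-NOT deadenylase (exon 19 of 49, chr8:95755109-95755111), Fam114a2 and Paics, an enzyme of purine synthesis. In Fam114a2 only the shorter exon length was in the annotation, and in Paics only the longer. Both ends were listed in at least 1 same library for 80.8% of exons under 10 nt and for 98.3% of longer shifts. The sources used here do not say how the program treats close ends, and its part in the low number below 10 nt was not tested.

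The annotation held nearly all recurrent pairs and few of the rare ones. Positions in the files do not lie on GRCm38: of 3653 annotated pairs that matched at 1 place, 48 (1.31%) had the same position. Exons were therefore matched by gene, both lengths and the shared side. Of 9088 exons with 2 ends in matched genes, 30.9% had both forms in GENCODE M21. The share was 8.13% where the less listed end was in 1 library, 29.2% in 2 to 5, 66.2% in 6 to 11 and 91.2% in all 12. In the single-library class, 54% had an annotated shorter form and an unannotated longer one, 19.8% had only the longer form annotated, and 13.3% neither.

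Ends inside an annotated exon could be read in the transcript sequence. Where only the longer form was annotated, 748 of 791 inner acceptors (94.6%) followed an AG, against 8.33% of all positions in the same exons. The share was 91.2% for acceptors in 1 library and 99.6% for those in 2 to 5. Of 485 inner donors in such exons, 385 (79.4%) were followed by GT, against 4.85% of positions, and another 42 by GC. The GT share was 72% in 1 library and 89.5% in 2 to 5. In exons with both forms annotated it was 97.1% for donors, and 99.9% of acceptors followed AG. The motifs AG and GT were read on the transcribed strand only and at the 2 bases next to the end.

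**Figure D2:**
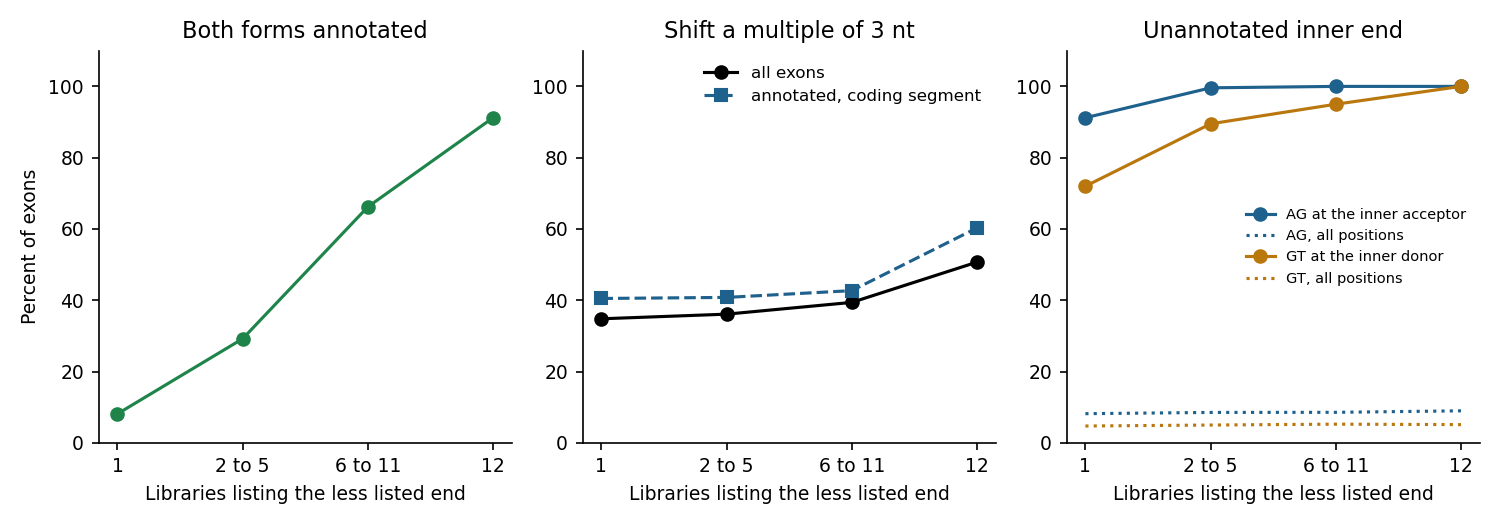
Exons by the number of libraries listing the less listed end (horizontal axes). Left, percent of exons with both forms annotated, from 8.13% to 91.2%; middle, percent of shifts that are a multiple of 3 nt for all exons and for annotated coding segments, reaching 50.7% and 60.3% in all 12 libraries; right, percent of unannotated inner ends at AG or GT, with dotted lines for all positions in the same exons.

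A segment was classed as coding if any annotated transcript with the longer exon had it wholly in the coding region. The other classes hold only segments that were coding in no such transcript. By this rule the segment was coding in 610 of the 889 annotated pairs in all 12 libraries (68.6%), and 60.3% of these shifts were a multiple of 3. Of the 84 segments in 5′ UTRs the share was 29.8%, of the 125 across a boundary of the coding region 28.8%, and of the 56 in noncoding transcripts 23.2%. Among coding segments whose less listed end was in 1 library the share was 40.5%. The median coding segment in all 12 libraries was 36 nt long. The 57 exons with shifts of 5 to 12 nt in all 12 libraries included the coding donors of Ddx17, U2af2, Prpf40b and Scaf4 (6 or 12 nt), the 12 nt acceptor of Arpc1b, a subunit of the actin-nucleating Arp2/3 complex, and a 10 nt donor in the 5′ UTR of Tirap, the adaptor that brings MyD88 to TLR4. The frame-changing coding shifts in all 12 included the 14 nt of Ifngr1, the 17 nt of Chuk and the 74 nt donor of Fcer1g, the signalling chain of Fc receptors (exon 3 of 5, chr1:171230922-171230995).

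Genes that encode the splicing machinery carried recurrent alternative ends most often among the lists described. An alternative end was listed in all 12 libraries in 14 of 37 genes of SR proteins and their kinases (37.8%), 13 of 35 genes of splice site recognition (37.1%) and 10 of 33 hnRNP genes (30.3%), against 1201 of all 14275 genes (8.41%). In 1 or more libraries the shares were 89.2%, 62.9% and 66.7%, against 40.9% of all genes. Srsf7, an SR protein, had a donor with 3 positions in all 12 libraries, 24 and 33 nt beyond the shortest form (chr17:80204131-80204154 and chr17:80204122-80204154). Hnrnph3 had a 45 nt donor, Acin1 a 36 nt and a 39 nt acceptor, Tial1 a 51 nt acceptor and Tardbp, the RNA-binding protein TDP-43, donors of 9 and 27 nt. Expression and exon number were not compared between the lists and all genes.

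**Figure D3:**
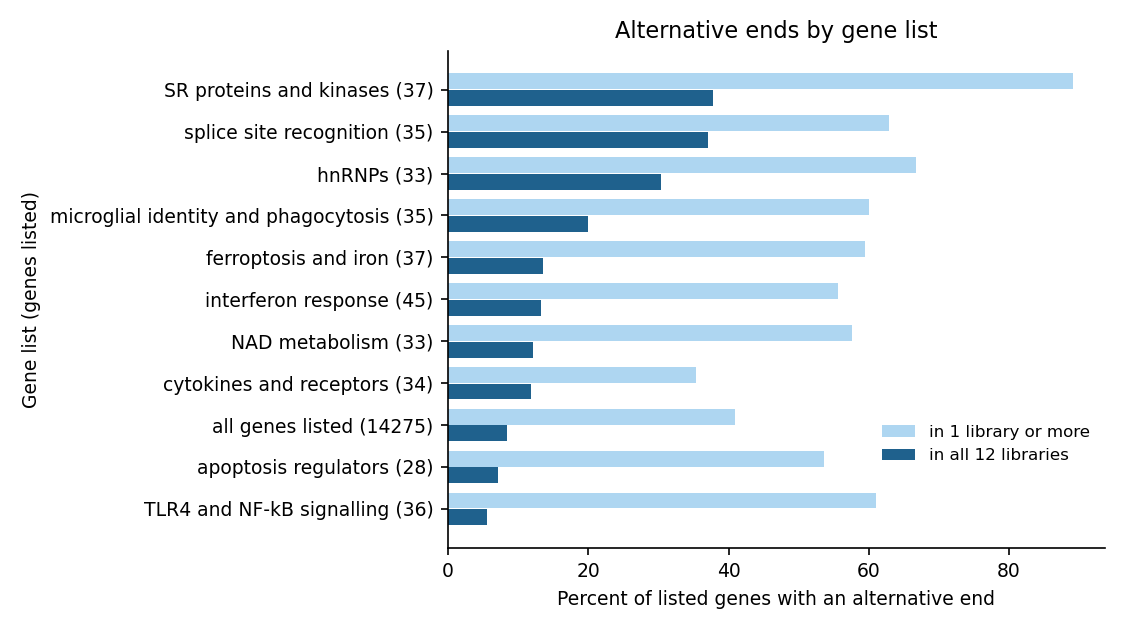
Percent of the genes in each list (vertical axis, with the number listed) that had an alternative end in 1 library or more (light bars) and in all 12 libraries (dark bars). The 3 splicing lists reach 30.3% to 37.8% in all 12 libraries, against 8.41% of all genes listed.

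Of 35 genes of microglial identity and phagocytosis, 7 had an alternative end in all 12 libraries (20%): Trem2, Spi1, Grn, Cd33, Fcgr2b, Fcer1g and Mef2a. Cd33, a sialic acid-binding receptor, had a donor with 3 positions, and the position 168 nt beyond the shortest was in 1 LPS+NMN library, 1 LPS library, all 3 NMN and all 3 Control libraries. Fcgr2b, the inhibitory Fc receptor, had an 84 nt coding donor in all 12. Of 45 interferon-response genes 6 did, among them Irf7, Oas1g, Oas2, Adar and Parp9, and of 34 cytokines and receptors 4 (Il15, Il15ra, Csf1 and Ifngr1). Csf1, the growth factor of microglia, had an 885 nt coding acceptor in exon 6 of 9. Of 37 genes of ferroptosis and iron handling 5 did (Ftl1, Slc11a1, Slc11a2, Sat1 and Pcbp2), of 33 genes of NAD metabolism 4 (Nampt, Nadk, Parp2 and Parp3), of 36 genes of TLR4 and NF-kB signalling 2 (Tirap and Chuk), and of 28 apoptosis regulators 2 (Casp4 and Apaf1). The 168 nt coding acceptor of Casp4, the inflammatory caspase that senses cytosolic LPS, was in exon 2 of 9.

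Several genes at the centre of the study's question had the same alternative ends in every group. Stat3 had its 50 nt acceptor pair in all 12 libraries and no other line, so its value was 2 in every library and it could not be tested. That pair is the one known to give the STAT3-alpha and STAT3-beta proteins. Nampt, which makes NMN from nicotinamide, had a 70 nt coding donor in exon 2 of 11 in all 12 libraries (chr12:32830254-32830323), with 1 further end in NMN replicate 2. Irf7, an interferon-induced transcription factor, had a 96 nt coding acceptor in all 12 libraries (exon 6 of 10, chr7:141264560-141264655). Its 286 nt donor was in all 3 LPS+NMN, all 3 LPS, all 3 NMN and 1 of 3 Control libraries. Irf7 thus had 4 lines in every LPS+NMN, LPS and NMN library and 2, 4 and 2 lines in Control, so that the groups touch at 4; the difference of LPS from Control was 0.49 on the log2(lines + 1) scale (limma, Benjamini-Hochberg adjusted p = 0.646). Bcl2l1, which encodes the survival protein Bcl-xL, had an 18 nt acceptor in 1 LPS+NMN, 2 LPS, 1 NMN and 1 Control library, and none of its comparisons passed. Vegfa had a 1788 nt donor in 2 LPS libraries and in no other. Irf3 had an alternative end in 1 LPS library and Slc7a11, the cystine transporter subunit, in 1 Control library. Gpx4, Tfrc and Xbp1 had none listed.

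The number of alternative end lines did not separate LPS from Control. LPS libraries had 7702, 7383 and 7765 lines, against 8498, 7958 and 7423 in Control libraries. Control replicate 3 lay within the LPS range, so the groups overlapped. The mean was 7617 ± 205 in LPS and 7960 ± 538 in Control (SD, n = 3 each), a difference of -343 (exact permutation test, two-sided, p = 0.4, where 0.1 is the smallest p that 3 against 3 allows). As a share of splicing events the sign turned, with LPS 0.57 percentage points above Control (exact permutation p = 0.2). NMN libraries had 7315, 7942 and 8155 lines, a mean of 7804 ± 437 against 7960 ± 538 in Control, and they lay on both sides of the Control values (difference -156, exact permutation p = 0.7). Without Control replicate 1 that difference was 114, and as a share of splicing events it was 0.641 points.

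LPS+NMN libraries had more alternative end lines than LPS libraries without overlap. The values were 7825, 8037 and 8024 in LPS+NMN, against 7702, 7383 and 7765 in LPS, a mean of 7962 ± 119 against 7617 ± 205 and a difference of 345 (exact permutation p = 0.1, the smallest possible, which does not pass 0.05). All splicing events were also more numerous, 17763 ± 387 in LPS+NMN against 17209 ± 416 in LPS, and as a share of them the difference was 0.574 points (exact permutation p = 0.4). LPS+NMN and Control had almost the same mean, with a difference of 2.33 lines (exact permutation p = 1). LPS+NMN libraries lay inside the range of the Control libraries. The sign of that difference turned when only exact forms were counted (-28).

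**Figure D4:**
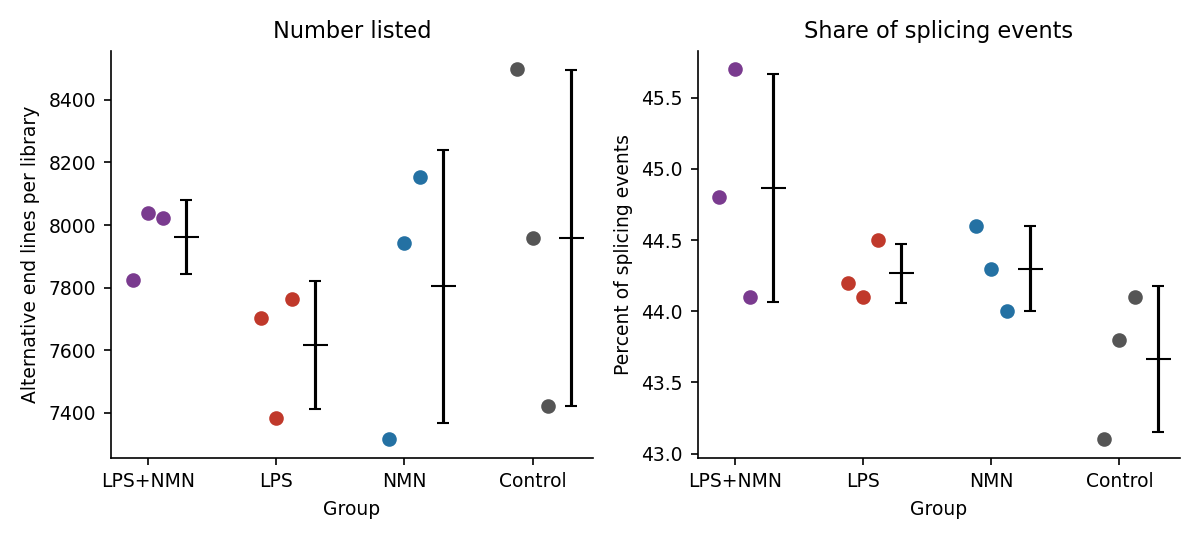
Alternative end lines per library (left, number; right, percent of splicing events) for the 4 groups, with 1 point per library and the mean ± SD beside them; the vertical axes do not start at 0. LPS+NMN libraries (7825 to 8037) lie above LPS libraries (7383 to 7765), while NMN and Control libraries spread from 7315 to 8498.

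LPS was compared with Control gene by gene. Lines per gene were tested with limma on log2(lines + 1), fitted over 24702 features of genes and event classes and adjusted over all of them; 3277 of the features were alternative ends. Limma called 8 genes higher (0.244% of the 3277) and 6 lower (0.183%) at an adjusted p of 0.05, while of the features of all classes 0.085% were called higher and 0.0405% lower. At an unadjusted p under 0.05 there were 328 alternative end features (10%). The shares of all classes include the alternative ends, here and in the comparisons below. A filter of at least 2 lines in 3 libraries kept all 3277 alternative end features but only 14403 features of all classes. Under it, 3 alternative end features and 15 features of all classes were called higher in LPS, and 0 and 2 lower. The groups of the 14 called genes did not overlap. Comparisons with Control share its 3 libraries, so a gene absent from all of them can be called in each.

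Adamts6, Carf and Hpgds gained alternative ends in LPS that were also present with NMN. Adamts6, a secreted metalloprotease, had 2, 2 and 2 lines in LPS and 0, 0 and 0 in Control, with 4 in each LPS+NMN and 2 in each NMN library. All 9 treated libraries lay above the Control libraries (LPS minus Control 1.58 ± 0.19 SE, limma adjusted p = 0.00307). In LPS and NMN libraries the lines were those of a 751 nt donor pair in exon 20 of 21, in the 3′ UTR of an annotated transcript. Carf had 2, 4 and 2 lines in LPS and none in Control, with 2 in each other treated library (1.83 ± 0.22, limma adjusted p = 0.0036). They were the 105 nt acceptor pair printed above, in all 9 treated libraries. Hpgds, the haematopoietic prostaglandin D synthase, had 6, 2 and 2 lines in LPS and none in Control (1.99 ± 0.31, limma adjusted p = 0.0293). With exact forms only the limma adjusted p was 0.268. The only approximate lines of Hpgds were 2 in NMN replicate 1, and its LPS lines were all exact. Events of other classes in Adamts6 overlapped between LPS and Control (8, 7 and 4 against 5, 4 and 7). Those in Carf were 6 in each LPS library and 5, 2 and 5 in Control. Those in Hpgds were also more numerous, 6 to 11 in each treated library against 4, 5 and 3 in Control. Its ends differed between libraries: a Hpgds acceptor pair 1795 nt apart was complete in 2 LPS+NMN libraries, 1 LPS and 1 NMN library, and a donor pair 110 nt apart in 1 LPS+NMN and 2 LPS libraries.

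Ripk2, Rps12, Rhot2 and Asmt had alternative ends in LPS libraries and in no LPS+NMN, NMN or Control library. Ripk2, the kinase that signals from NOD receptors, had 2 lines in each LPS library and 0 in each of the other 9. They were an acceptor pair 20 nt apart, of exons of 142 and 162 nt, of which the longer is annotated. Rps12, a protein of the small ribosomal subunit, had 2 lines in each LPS library from a 139 nt donor pair, and Rhot2, a mitochondrial GTPase, 2 from acceptor pairs of 76 nt in 2 libraries and 24 nt in the other. Processed copies of ribosomal protein genes are common, and whether reads of Rps12 were shared with such copies was not tested. Asmt, an enzyme of melatonin synthesis, had 2, 2 and 4 lines in LPS only. All of them lay on the minus strand, while the annotation has Asmt on the plus strand, so they may not be of its own message; of all alternative end lines in genes with 1 annotated strand, 1.89% lay on the other strand. No exon length of Asmt was annotated. Asmt had 6, 5 and 5 events of other classes in LPS libraries and 0 or 2 in each of the other 9. Ripk2, Rps12 and Rhot2 had other events in all 12 libraries, and all 3 differed by 1.58 ± 0.28 (limma adjusted p = 0.0445). The other events of Rps12 went the opposite way, with 2 in each LPS library and 4 or 5 in each of the other 9. Those of Ripk2 and Rhot2 overlapped between LPS and the other libraries. Ripk2, Rps12, Rhot2 and Asmt passed the filter of 1 line in 3 libraries only through their LPS libraries. Their p-values are not independent of that selection and give no separate support. Ist1, a regulator of ESCRT-III membrane scission, was different, with none in LPS+NMN, 2, 3 and 2 lines in LPS, 2 in each NMN library and none in Control (LPS minus Control 1.72 ± 0.23, limma adjusted p = 0.00525).

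Alternative ends of the 5 named genes that fell were in Control libraries alone. Glo1, Tln2, Cd151 and D2hgdh had 2 lines in each Control library and 0 in each of the 9 treated ones (-1.58 ± 0.28, limma adjusted p = 0.0445). The sixth gene called lower carries a clone name and is not described. The lines of Glo1 were the 20 nt acceptor pair and those of Tln2 the 45 nt donor pair printed above, both with annotated forms. Cd151, a tetraspanin, had a 350 nt donor pair and D2hgdh, which oxidises D-2-hydroxyglutarate, a 231 nt donor pair, each with only the shorter form annotated. Uba7 had 0, 0 and 0 lines in LPS and 2, 4 and 2 in Control (-1.83 ± 0.31, limma adjusted p = 0.0445), mostly the 128 nt acceptor pair. All 5 genes had other events in all 12 libraries. Their alternative ends passed the filter only through the Control libraries, so these p-values, too, are not independent of that selection. In 9 of the 14 calls, the values were identical within every group, so that the error comes from limma's moderation over features. Leaving out any 1 LPS or Control library left 4 to 8 calls, and only Adamts6 and Carf were called in all 6 such fits; Glo1, Tln2, Cd151, D2hgdh, Uba7, Ripk2, Rps12, Rhot2 and Asmt were called in none of those in which they could be tested.

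**Figure D5:**
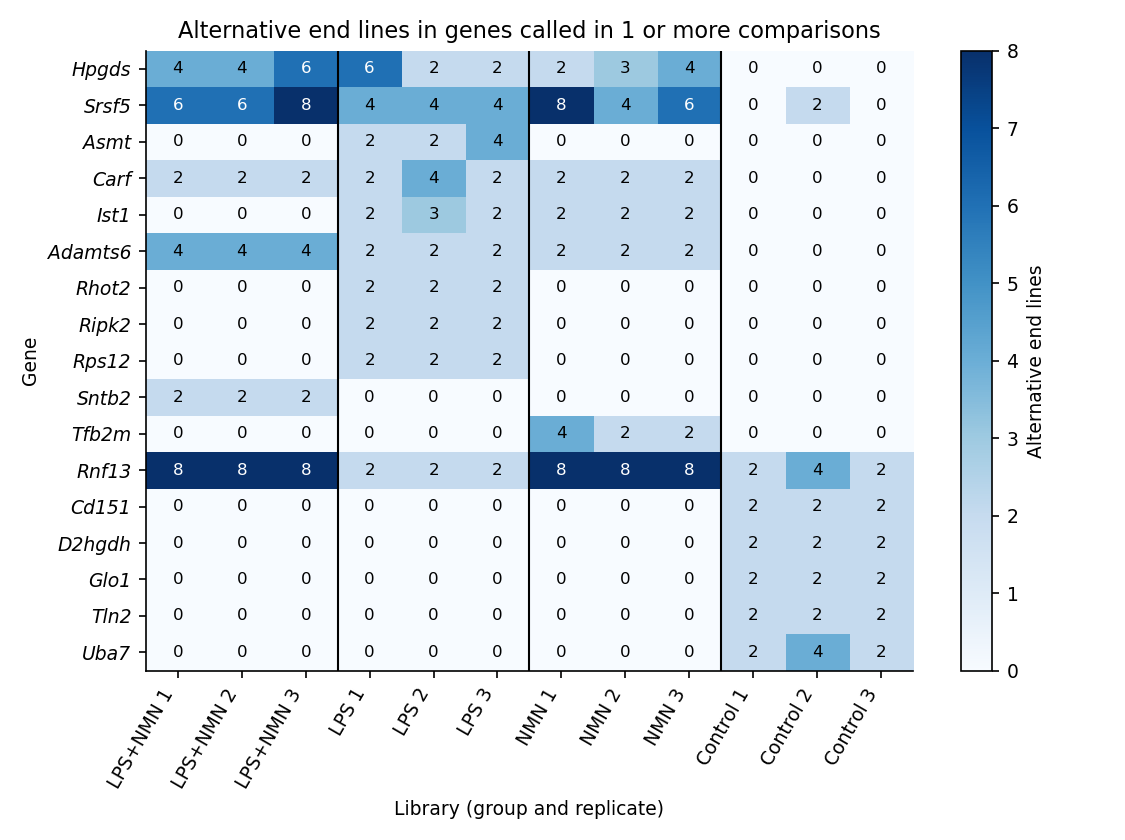
Alternative end lines in each library (columns, by group) for the 17 named genes called in 1 or more comparisons (rows), with darker cells for more lines. The upper rows hold genes with lines in treated libraries and none or few in Control, and the lowest 5 rows genes with lines in Control libraries only.

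NMN alone was compared with Control in the same fit. Limma called 7 genes higher (0.214%) and 1 lower (0.0305%), against 0.0729% higher and 0.0081% lower of all features, and 351 alternative end features had an unadjusted p under 0.05. Adamts6 (1.58 ± 0.19, limma adjusted p = 0.00307), Carf (1.58 ± 0.22, adjusted p = 0.0161) and Ist1 (1.58 ± 0.23, adjusted p = 0.018) had 2 lines in each NMN library and none in Control. Hpgds had 2, 3 and 4 lines in NMN and none in Control (1.97 ± 0.31, adjusted p = 0.0352). Tfb2m, a mitochondrial transcription factor, had 4, 2 and 2 lines in NMN and none in any LPS+NMN, LPS or Control library (1.83 ± 0.31, limma adjusted p = 0.0499). Its events of other classes were also more numerous in NMN, 9, 11 and 10 against 3 to 8 in the libraries of the other groups. Uba7 was lower, with none in NMN. Tfb2m passed the filter only through NMN libraries and Uba7 only through Control libraries, so neither p-value is independent of that selection.

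Rnf13 and Srsf5 were called with NMN and not with LPS alone. Rnf13, a RING ubiquitin ligase of endosomal membranes, had 8 lines in each NMN library, against 2, 4 and 2 in Control libraries (1.34 ± 0.21, limma adjusted p = 0.0288). Its 10 nt donor pair was complete in all 3 NMN libraries and in 2 Control libraries, and its 729 nt acceptor pair in all 3 and in 1. The 8 lines were 4 ends, each listed in both the exact and the approximate form, and Control libraries had exact lines alone. With exact forms only, or with both forms counted once, the difference was 0.49 and Rnf13 was not called (limma adjusted p = 0.71 and 0.709). Srsf5, an SR protein, had 8, 4 and 6 lines in NMN and 0, 2 and 0 in Control (2.24 ± 0.36, limma adjusted p = 0.0483); LPS libraries had 4 each, and NMN against LPS was not tested. The Srsf5 pairs were a 797 nt and a 601 nt donor, a 966 nt acceptor and a 195 nt acceptor, of which the last was annotated. Without Control replicate 1, 2 or 3, limma called 5, 4 and 4 genes. Without Control replicate 2 the adjusted p of Srsf5 was 0.00071, and it was 0.0551 or higher in the other 5 fits that left out a library; with exact forms only it was 0.0567. Rnf13 was called in 1 of the 6 fits that left out a library, without Control replicate 2, and Hpgds in 1 of 6 and not with exact forms only (1.44, limma adjusted p = 0.637). Tfb2m and Uba7 were called in none of the 3 such fits in which each could be tested. Carf and Ist1 were each called in 3 of the 6 fits, and Adamts6 in all 6.

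NMN added to LPS was compared with LPS alone, the contrast that the study names. Limma called 1 gene higher and 1 lower (0.0305% each), against 0.0121% and 0.0081% of all features, with 309 alternative end features at an unadjusted p under 0.05. Rnf13 had 8 lines in each LPS+NMN library and 2 in each LPS library (1.58 ± 0.21, limma adjusted p = 0.0148). In LPS+NMN, too, the 8 lines were 4 ends in both forms; with exact forms only, or both forms counted once, the difference was 0.74 and not called (limma adjusted p = 0.614 and 0.64). Ist1 had none in any LPS+NMN library, against 2, 3 and 2 in LPS (-1.72 ± 0.23, limma adjusted p = 0.0158). The lines of Ist1 were a 1115 nt donor pair in 2 LPS and 2 NMN libraries and other acceptor pairs in the rest. The gene rather than 1 end thus recurred. Ist1 and Rnf13 were each called in 3 of the 6 fits that left out an LPS+NMN or LPS library. Without LPS replicate 2 no alternative end was called, and without LPS+NMN replicate 2 or LPS replicate 1, 7 were; without LPS replicate 3, 4 were.

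The effect of NMN in the presence of LPS was also set against its effect without LPS, as the interaction of both treatments. Ist1 was the single alternative end feature called: -3.31 ± 0.32 (limma adjusted p = 0.00218), with 0.00405% of all features called higher and 0.0243% lower. Its lines were absent from LPS+NMN and Control libraries and present in all LPS and NMN libraries. At an unadjusted p under 0.05 there were 320 alternative end features. Ist1 was called in all 19 other settings of this test, with adjusted p-values from 0.000233 to 0.0335. It passed the filter only through its LPS and NMN libraries, and lines in either group lower this contrast. Its p-values are not independent of that selection, and the 19 settings reuse the same libraries, so they give no separate support. Without LPS replicate 2 or 3, NMN replicate 2 or 3, or LPS+NMN replicate 1, 2 to 4 features were called.

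LPS with NMN was last compared with Control. Limma called 6 higher and 6 lower (0.183% each), against 0.085% and 0.0324% of all features, and 349 had an unadjusted p under 0.05. Adamts6 had 4 lines in each LPS+NMN library and none in Control (2.32 ± 0.19, limma adjusted p = 8.66e-05). Hpgds had 4, 4 and 6 lines in LPS+NMN and none in Control (2.48 ± 0.31, adjusted p = 0.00423), and Srsf5 had 6, 6 and 8, against 0, 2 and 0 (2.40 ± 0.36, adjusted p = 0.0225). Carf and Rnf13 were also called higher, but Rnf13 was not with exact forms only or with forms counted once (0.49, limma adjusted p = 0.644 and 0.654). Hpgds and Srsf5 were not called with exact forms only (limma adjusted p = 0.153 and 0.0581), although all Hpgds lines in LPS+NMN were exact. Sntb2, a syntrophin of the dystrophin complex, had 2 lines in each LPS+NMN library and none in the other 9 (1.58 ± 0.28, limma adjusted p = 0.0476), from a 13 nt donor in 2 libraries and a 121 nt acceptor in the other. Cd151, D2hgdh, Glo1, Tln2 and Uba7 were lower, against the same Control libraries as in the comparison with LPS. All of them passed the filter only through those Control libraries, and Sntb2 only through LPS+NMN libraries. Their p-values are not independent of that selection. Leaving out Control replicate 2 or 3 or LPS+NMN replicate 1 left 4 calls and leaving out Control replicate 1 left 7. Adamts6 and Hpgds were called in all 6 fits of this kind, Carf in 3, and Rnf13 and Srsf5 in 1 each. Sntb2, Cd151, D2hgdh, Glo1, Tln2 and Uba7 were called in none of the 3 such fits in which each could be tested.

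Single ends were also compared. In LPS against Control, 81 ends were in all LPS and no Control library (1.19% of the 6800 ends in 3 or more of the 6 libraries, against 1.31% of events of all classes), and 121 were in all Control and no LPS library (1.78%, against 1.35%). In NMN against Control the counts were 86 and 102 (1.24% and 1.47%, against 1.19% and 1.03%). In LPS+NMN against LPS they were 79 and 76 (1.16% and 1.12%, against 0.895% and 0.793%), and in LPS+NMN against Control 92 and 123 (1.32% and 1.76%, against 1.39% and 1.28%). Nearly all lay in genes with an event in all 6 libraries compared. The ends of 1 exon and the forms of 1 position were counted apart, so the ends lay in fewer genes. In the order given, these were 43 and 64, 46 and 57, 47 and 42, and 50 and 69 genes. Ends in all 3 libraries of a group and in none of the other 9 numbered 1 in LPS+NMN (1 gene), 9 in LPS (6 genes), 7 in NMN (4 genes) and 29 in Control (16 genes). That is 0.00403%, 0.0363%, 0.0282% and 0.117% of all alternative end lines, against 0.0283%, 0.041%, 0.0332% and 0.0735% of events of all classes, among which Control also had the most (104). Ends in all libraries of the other groups and missing from all 3 of a group numbered 0 in LPS+NMN, 0 in LPS, 2 in NMN and 6 in Control, out of 24787 lines. The numbers for all classes were 15, 20, 14 and 120, out of the larger total of 141591 events.

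In some of these exons the companion end was in every library and only the other end differed. In Soat1, a cholesterol-esterifying enzyme, an acceptor 4 nt inside an annotated 118 nt exon was in all 3 LPS libraries and in none of the other 9, while the 118 nt form was in all 12. In Selenoh, a nuclear selenoprotein, a donor that shortens a 105 nt exon to 68 nt was in all 3 Control libraries and in no other; both lengths are annotated (chr2:84670012-84670048). In Mfsd11, a predicted transporter, an acceptor 25 nt further into exon 5 of 14 was in all 3 LPS+NMN, no LPS, 2 NMN and all 3 Control libraries (chr11:116859324-116859348). Qars, the glutaminyl-tRNA synthetase, had a donor that shortens the 128 nt exon 21 of 24 by 44 nt (chr9:108514830-108514873). It was in all 3 LPS+NMN, 2 LPS, all 3 NMN and no Control libraries. A further donor of this exon, which shortens it by 29 nt, was in 1 LPS+NMN, all 3 LPS, all 3 NMN and all 3 Control libraries.

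None of these single ends was tested on its own. Pfn1, the actin-binding protein profilin 1, had a 189 nt form in 1 LPS+NMN, 1 LPS, no NMN and all 3 Control libraries. Mrps17, a mitochondrial ribosomal protein, had 10 donors in 1 exon of its 5′ UTR. Those giving 211 and 278 nt exons were in all 3 LPS+NMN, 2 LPS, 2 NMN and no Control libraries, while 5 annotated donors of Mrps17 were in all 12. Nubp2, an iron-sulfur cluster assembly factor, had an 83 nt form of a 155 nt exon in 2 LPS+NMN, all 3 LPS, 1 NMN and no Control libraries (exon 4 of 7, chr17:24884484-24884555).

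The lists showed no call apart from Ripk2 and Srsf5. In LPS against Control, 13 of the 45 interferon-response genes could be tested: 9 had a higher mean, none a lower one, and none passed. The median difference was 0.49, against 0.00 over all 3277 features, of which 1162 were higher and 1390 lower. In NMN against Control, 10 of the 13 were higher and 1 lower (median 0.53), in LPS+NMN against Control 8 and 1 (median 0.49), and in LPS+NMN against LPS 4 and 5 (median 0.00). Over all 3277 features, 1239 were higher and 1328 lower in NMN against Control, and 1276 and 1299 in LPS+NMN against Control. In LPS+NMN against LPS, 1372 of all features were higher and 1144 lower. The median over all features was 0.00 in each of these comparisons. Of 13 tested genes of TLR4 and NF-kB signalling, 8 were higher and 3 lower in LPS (median 0.35), with Ripk2 called. Of 12 genes of ferroptosis and iron, 3 were higher and 5 lower in LPS than in Control (median 0.00), and 7 were higher and 4 lower in LPS+NMN than in LPS (median 0.31). Of 12 genes of NAD metabolism, 6 were higher and 3 lower in LPS (median 0.10), and 3 were higher and 7 lower in LPS+NMN than in LPS (median -0.10). Among 22 SR protein genes, the single call was Srsf5.

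Il15ra did not overlap between treated and Control libraries, and Parp2 did not between LPS+NMN and LPS, but neither passed. How many of all features separate in this way was not counted. In the comparisons with values given here, 9.43% to 10.6% of alternative end features had an unadjusted p under 0.05 by limma. Il15ra, the receptor chain that presents interleukin-15, had 2, 2 and 4 lines in LPS+NMN, 4, 2 and 4 in LPS, 4, 4 and 4 in NMN, and 7, 7 and 6 in Control. Every treated library was below every Control library; the difference of LPS from Control was -0.86 ± 0.25 (limma adjusted p = 0.322) and that of LPS+NMN from Control -1.11 ± 0.25 (adjusted p = 0.172). Parp2, an ADP-ribosyltransferase activated by DNA breaks, had 2 lines in each LPS+NMN library and 4, 6 and 6 in LPS libraries (-1.06 ± 0.26, limma adjusted p = 0.428). NMN libraries had 4, 2 and 4 lines of Parp2 and Control libraries 2, 2 and 4. A 69 nt donor of Parp2 was in no LPS+NMN, all 3 LPS, 2 NMN and 1 Control library.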

How the data were processed

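The 12 catalogues deposited by the authors list transcript events with type, gene, chromosome, start, end and strand, per the file headers, and no counts or levels. In the submitters' processing notes the build is GRCm38 and the tools are HOMER, MACS2 2.1.0 and BWA 0.7.12. Which program built the catalogues was not given in the sources used here. Groups and replicate numbers come from the titles in the labels, and every line of the files was assigned to its own sample. Lines of the alternative end type, exact or approximate, were taken as distinct by form, gene, chromosome, start and end. Ends of a gene that share 1 boundary formed an exon, and a shift is the distance from the end listed in most libraries.

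Distinct lines per gene and event class (first exon, last exon, skipped exon, retained intron, alternative end) were tested by limma (version 3.58.1, R 4.3.3) on log2(lines + 1), with moderation set to trend and robust, in 1 model with a mean per group and 8 residual degrees of freedom. Features needed 1 line in 3 libraries, and p-values were adjusted by Benjamini-Hochberg over all 24702 features; 2166 alternative end features fell below the filter and 394 were constant. Totals were compared with exact two-sided permutation tests. Differences are not folds of expression. The fit was tested on simulated data. Exon lengths were matched to GENCODE M21 by symbol or RefSeq synonym, and 5790 of the 5832 genes matched. Coordinates are GENCODE's; positions in the files were not converted.

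The members and gene lists were chosen with earlier results of these data known. Genes named were those called (up to 10 per direction), the 10 exons with most ends, up to 8 ends per direction in all libraries of 1 group and none of the other, up to 8 exons per shift class with both ends in all libraries, up to 4 members per list, and 10 anchor genes, without predicted or clone names; list members in all 12 libraries are named beside their counts. Cacna1a, Trem2, Spi1, Srsf7, Tardbp and Tial1, and the sequences printed, were chosen after their values were seen. Alternatives were another pseudocount, other filters and forms, fewer groups in the fit, moderation without trend and robust settings, a replicate block and leaving out each library. Same-numbered libraries deviated together with correlations of -0.0133 to 0.0521, so the numbers were not taken as pairs. Tools were Python 3.11.15, pandas 2.3.3, SciPy 1.17.1 and matplotlib 3.10.9. Some genes that the naming rule selects are not reported here.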

Additional observations from a re-analysis of the deposited data

Results flagged for a closer look

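Ist1, a regulator of ESCRT-III membrane scission, was flagged because the difference made by NMN differed between cells with and without LPS. The change with NMN in the presence of LPS minus that in its absence was -3.31 on the log2(lines + 1) scale (SE 0.32, limma adjusted p = 0.00218). Alternative ends of Ist1 were in 0 of 3 LPS+NMN, 3 of 3 LPS, 3 of 3 NMN and 0 of 3 Control libraries. Ist1 passed the filter only through its LPS and NMN libraries, so this p-value is not independent of that selection.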

How the results depend on the processing

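Differences in totals kept their sign in LPS+NMN against LPS (228 to 420 lines with 1 library left out). In LPS against Control the range was -611 to -73.8, and as a share of splicing events the sign turned (0.57 points). In NMN against Control it was -424 to 114, with a share of 0.641 points. In LPS+NMN against Control it was -266 to 272, with -28 for exact forms only, -5 with both forms counted once and -13.7 for ends in at least 2 libraries. Calls by limma depended on the setting. In LPS against Control the main 14 became 4 with a pseudocount of 0.5, 4 without the filter, 3 with at least 2 lines in 3 libraries, 4 with both forms counted once and 26 with only the 2 groups fitted, and 4 to 8 with 1 library left out. In NMN against Control the main 8 became 4, 4 (at least 2 lines), 3 (exact forms), 4 (forms counted once), 20 (2 groups), 13 (no trend and robust settings) and 4 to 7. In LPS+NMN against LPS the main 2 became 1 under the pseudocount, stricter filter, exact forms and forms counted once, 15 with 2 groups, 8 without trend and robust settings and 0 to 7. In LPS+NMN against Control the main 12 became 4, 5 (no filter), 5 (stricter filter), 2 (exact forms), 4 (forms counted once), 34 (2 groups) and 4 to 11. For the interaction the main 1 became 2 with the pseudocount, 2 with exact forms, 2 with forms counted once, 14 without trend and robust settings and 1 to 4. With the replicate block, 4, 2, 0, 5 and 1 features were called in the same order of comparisons; the numbers pair no samples by the labels, so a call lost there is not a weaker effect. The cause of these changes was not tested. Ends in all libraries of 1 group and none of the other grew in number with 1 library left out, as fewer libraries then decide: to 119 to 246 (LPS, not Control), 206 to 379 (Control, not LPS), 152 to 321 (NMN, not Control), 165 to 340 (Control, not NMN), 164 to 290 (LPS+NMN, not LPS), 131 to 243 (LPS, not LPS+NMN), 142 to 290 (LPS+NMN, not Control) and 182 to 369 (Control, not LPS+NMN). With 2 of 3 libraries required they were 557, 722, 619, 679, 647, 541, 646 and 686. The share of shifts that are a multiple of 3 was 40.3% with each end in at least 2 libraries and 52.1% in all 12, and the acceptor share 58.9% and 59.6%. Depth is unknown, so an end missing from a library may be present and unlisted.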
